A study of Mus musculus with 6 samples.

Results

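Nkx1-2 is a homeobox gene on mouse chromosome 7 that was read by 3 probe sets of the array, 1422049_at, 1422050_at and 1426177_a_at. It is 1 of 18193 genes with at least 1 probe set assigned to a single gene, and its probe sets were found by the gene symbol in the platform annotation. The gene was chosen because of its difference between the 2 groups of this study, so that difference is described here and not tested. The homeobox encodes the DNA-binding part of a transcription factor, and Nkx1-2, also known as Sax1, belongs to the NK branch of homeobox genes. In the embryo it marks the posterior epiblast and early neural plate beside the primitive streak, where progenitors of the spinal cord and trunk mesoderm are kept.

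Expression was measured on 6 arrays in bone marrow cells sorted as negative for lineage markers, positive for cKit and negative for Sca1, which the labels call adult myeloerythroid progenitors. The 3 ICN2-positive samples came from male mice of genotype Rosa-lsl-ICN2 Mx1-cre+, and the 3 ICN2-negative samples from female Mx1-cre+ littermates. All mice were treated at 6 weeks of age with polyIC, injected 3 times at 20 mcg per g, and their cells were taken 1 week later. PolyIC induces interferon, which drives the Mx1-cre recombinase in blood cells and in other tissues, and the recombinase opens the ICN2 transgene at Rosa26. ICN2 is taken here to be the intracellular, constantly active part of Notch2. Sex and genotype cannot be told apart in any comparison of the groups. The labels do not say that the replicates were separate animals, so the p-values cover the spread between the arrays alone, and that spread may be technical. In such bulk samples a difference in the number of cells that carry a transcript and a difference in RNA per cell cannot be told apart.

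The arrays had nearly equal medians, from 6.05 to 6.09 on the log2 scale. ICN2-positive replicate 1 stood apart, with correlations over all probe sets of 0.984 and 0.987 to the other 2 ICN2-positive arrays, which correlated at 0.995. Kit and the other 9 of 10 progenitor markers lay above the 40th percentile of intensity on every array. Among lineage markers, Cd5, Ms4a1 and Itgam lay at or below it on every array. Cd8a lay above it on all 6 arrays, Cd3e on 2 ICN2-negative and 3 ICN2-positive arrays and Cd4 on the 3 ICN2-negative arrays alone, and Ly6g and Ly6a were not analysed here. The brightest Notch2 probe set differed by 0.07 ± 0.07 (log2, difference ± SE, n = 3 per group), and whether it reads the transgene was not determined.

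The sequence in front of the Nkx1-2 start site was read from RefSeq (GRCm38.p6) beside that of Nrarp, a feedback inhibitor of Notch signalling, because both hold the palindrome CACGTG. This is the E-box that repressors of the Hes and Hey families and other basic helix-loop-helix factors can bind. Each line gives the 250 bases before the start, 5′ to 3′ on the gene's strand, with CACGTG in capitals. The Nkx1-2 stretch lies at chr7:132599638-132599887 on the minus strand and the Nrarp stretch at chr2:25180508-25180757 on the plus strand.
Nkx1-2: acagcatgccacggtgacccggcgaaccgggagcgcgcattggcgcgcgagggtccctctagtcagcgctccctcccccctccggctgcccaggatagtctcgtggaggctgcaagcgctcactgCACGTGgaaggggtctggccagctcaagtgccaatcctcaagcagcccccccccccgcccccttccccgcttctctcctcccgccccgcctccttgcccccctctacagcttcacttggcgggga
Nrarp: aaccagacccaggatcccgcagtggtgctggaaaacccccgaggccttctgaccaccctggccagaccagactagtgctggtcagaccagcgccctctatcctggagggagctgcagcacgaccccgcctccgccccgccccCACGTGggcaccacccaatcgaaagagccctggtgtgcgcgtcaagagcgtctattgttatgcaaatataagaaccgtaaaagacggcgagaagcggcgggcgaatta

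The CACGTG of Nkx1-2 begins 125 bases before the start and that of Nrarp 108 bases before it. Over windows that run from 250 bases before to 50 after each start, 7.15% of 32851 promoters held CACGTG. The Nkx1-2 window held neither TGGGAA, the core letters of the RBPJ motif through which Notch acts, nor the TATA box TATAAA, on either strand. Nrarp had no match to TGGGAA or TATAAA either, and they occurred in 25.6% and 13.6% of all windows. The Nkx1-2 window was rich in G and C, at 67.3% against a median of 52.7%, and held 21 CpG pairs against a median of 7. A match or its absence in this window says only which letters are there. Nrarp was chosen for printing after its sequence and values were seen. Promoters were also read for 6 of the 8 genes named below as most like Nkx1-2. Of these, Uty held CACGTG, and Nid1 and Col18a1 held TGGGAA, Col18a1 at only 1 of its start sites.

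The probe set 1422050_at showed the largest difference of the 3. Its linear intensity was 55.9, 16.8 and 20.4 in ICN2-negative replicates 1, 2 and 3, and 2860.2, 1509.4 and 1429.5 in ICN2-positive replicates 1, 2 and 3. All ICN2-positive arrays lay far above all ICN2-negative arrays, and the lowest of them was 25.6-fold over the highest ICN2-negative array. On the log2 scale the group means were 4.74 ± 0.93 and 10.84 ± 0.56 (SD, n = 3), a difference of 6.10 ± 0.51 (SE), or 68.6-fold. Only ICN2-negative replicate 1 of its group was above the 40th percentile of its array, by 0.52, and replicates 2 and 3 lay 1.21 and 0.94 below it. That percentile, at a log2 intensity of 5.26 to 5.30, is the limit of the filter on dim probe sets and not a measured background. With values under this limit raised to it, the difference was 5.38, or 41.7-fold.

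The probe set 1422049_at was dim in both groups. Its log2 intensity was 4.55, 4.54 and 4.65 in ICN2-negative replicates 1, 2 and 3, and 6.12, 5.59 and 5.40 in ICN2-positive replicates 1, 2 and 3. The groups did not overlap, and every ICN2-negative array was below the 40th percentile while every ICN2-positive array was above it. Against that limit the ICN2-positive level was at least 1.34-fold higher, and the measured means differed by 1.13 ± 0.19 (log2, SE).

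The probe set 1426177_a_at, whose suffix marks a set designed to read several transcripts of a gene, showed overlapping groups. It was dim as well, at 0.43 to 0.75 above the 40th percentile (log2) on the 6 arrays. It read 5.84, 5.71 and 5.78 on the ICN2-negative arrays and 6.05, 5.76 and 6.03 on the ICN2-positive arrays (log2, replicates 1 to 3). ICN2-positive replicate 2 lay below ICN2-negative replicates 1 and 3. The difference of 0.17 ± 0.10 (SE) stood beside SDs of 0.06 and 0.16. So 2 of 3 Nkx1-2 probe sets had every ICN2-positive array above every ICN2-negative array, a pattern found in 20.6% of the 23431 single-gene probe sets past the filter. As the gene was chosen on this contrast, nothing is read from that count. Which part of the transcript each probe set covers was not analysed here.

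**Figure D1:**
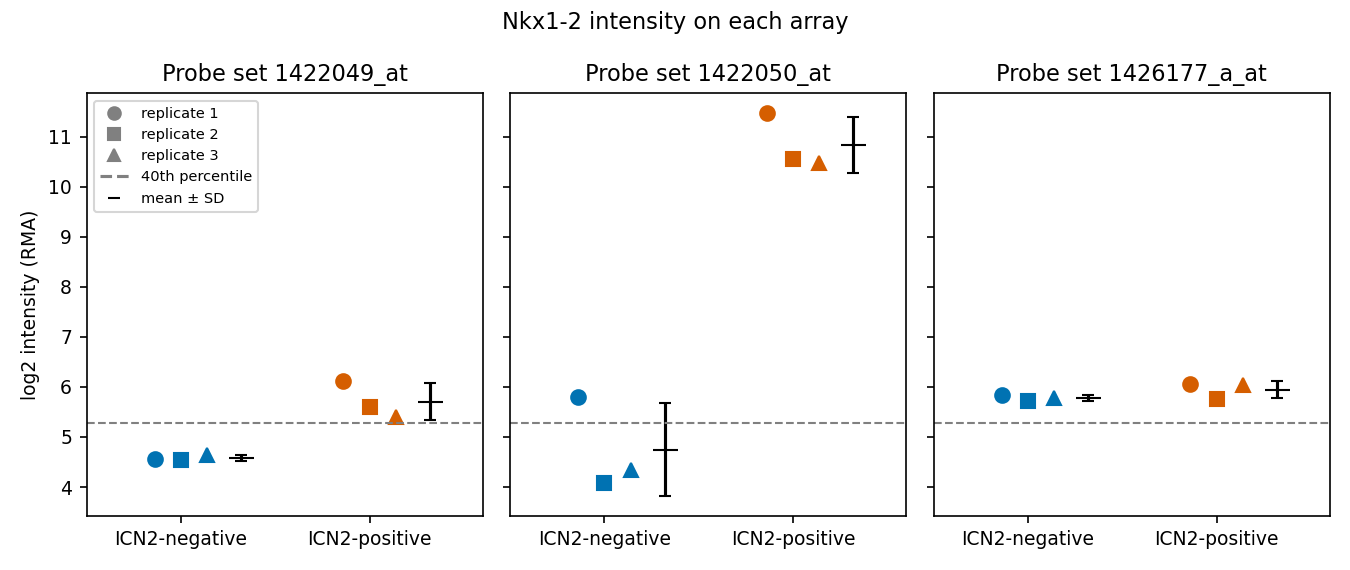
Log2 intensity (RMA) of the 3 Nkx1-2 probe sets on each array, with 1 symbol per replicate, the mean ± SD of each group (n = 3) and the mean 40th percentile of the arrays as a dashed line. The groups lie apart by 4.68 on the log2 scale for 1422050_at and by 0.76 for 1422049_at, and overlap for 1426177_a_at.

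The 3 ICN2-positive arrays were not alike in Nkx1-2. Replicate 1 was the highest of its group in all 3 probe sets, and for 1422050_at it exceeded the mean of replicates 2 and 3 by 0.96 (log2). Of 12836 other genes, 89 (0.69%) had a larger excess in that array. ICN2-positive replicates 2 and 3 differed little in 1422050_at, at 10.56 and 10.48. In the ICN2-negative group only replicate 1 of 1422050_at stood out, while 1422049_at and 1426177_a_at varied little there, with SDs of 0.06 and 0.06. Without ICN2-positive replicate 1 the differences were 5.78, 0.92 and 0.12 for 1422050_at, 1422049_at and 1426177_a_at. Without ICN2-negative replicate 1 they were 6.63, 1.11 and 0.20.

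The size of the Nkx1-2 difference can be set among the 12837 genes tested, each read by its brightest probe set past the filter. As many genes here lie under the 40th percentile in 1 group, values under it were raised to it before ranking. Nkx1-2 then differed by 5.38, and 3 genes had a higher difference. These were Eif2s3y, a translation factor gene of the Y chromosome, at 6.07, Gzma, a cytotoxic granule protease gene, at 5.94 and Hs6st2, a heparan sulfate sulfotransferase gene, at 5.40. When values were left as measured and each gene was read as the mean of its probe sets past the filter, the Nkx1-2 difference was 2.47 and 52 genes exceeded it.

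Genes of similar profile were sought by the root mean square difference from 1422050_at over the 6 arrays, after each gene was centred on its own mean. This measure follows the group contrast that chose Nkx1-2, so it is a description. It also takes in the spread of single arrays within a group, and values under the 40th percentile enter it as measured. No correlation is given within a group of 3 arrays. The nearest gene was Nid1, which encodes the basement membrane protein nidogen, at a root mean square difference of 0.48 against a median of 3.11 over all genes. Nid1 read 4.33, 3.68 and 3.60 on the ICN2-negative arrays and 10.50, 8.68 and 9.26 on the ICN2-positive arrays (log2). Like Nkx1-2 it was highest in replicate 1 of the ICN2-positive group, and its ICN2-negative values all lay under the 40th percentile.

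Next in likeness came Mcpt2, a mast cell protease gene, at 0.71, and Gzmb, a cytotoxic granule protease gene, at 0.71. Hs6st2 followed at 0.75 and Col18a1, a basement membrane collagen gene, at 0.81. The last 3 of the 8 named were Kdm5d, a histone demethylase gene, at 0.98, Uty, a gene of another histone demethylase family, at 1.03, and Pkia, an inhibitor of protein kinase A, at 1.08. Kdm5d and Uty lie on the Y chromosome and Hs6st2 on the X, and the groups differ in sex. In 5 of the 8, all ICN2-negative arrays were at or below the 40th percentile.

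Within the ICN2-positive group the high replicate 1 of Nkx1-2 was found in some of these genes. It was the highest array of its group in 4 of the 8, and exceeded the mean of the other 2 by 1.76 in Pkia, 1.53 in Nid1 and 0.69 in Mcpt2, but by 0.01 in Col18a1 and by -0.30 in Gzmb. The 8 were chosen by a measure that includes this array, so nothing is read from the count of 4.

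The profile with its sign turned lay nearest to Xist, the noncoding RNA of the inactive X chromosome, at a root mean square difference of 0.78. Tctex1d1, related to dynein light chains, followed at 0.89, Nrp1, a semaphorin co-receptor gene, at 1.10 and Abca9, a lipid transporter family gene, at 1.11. Tctex1d1, Nrp1 and Abca9 were lowest in replicate 1 of the ICN2-negative group, the array where 1422050_at was highest. The measure that chose them includes this array, so nothing is read from that.

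**Figure D2:**
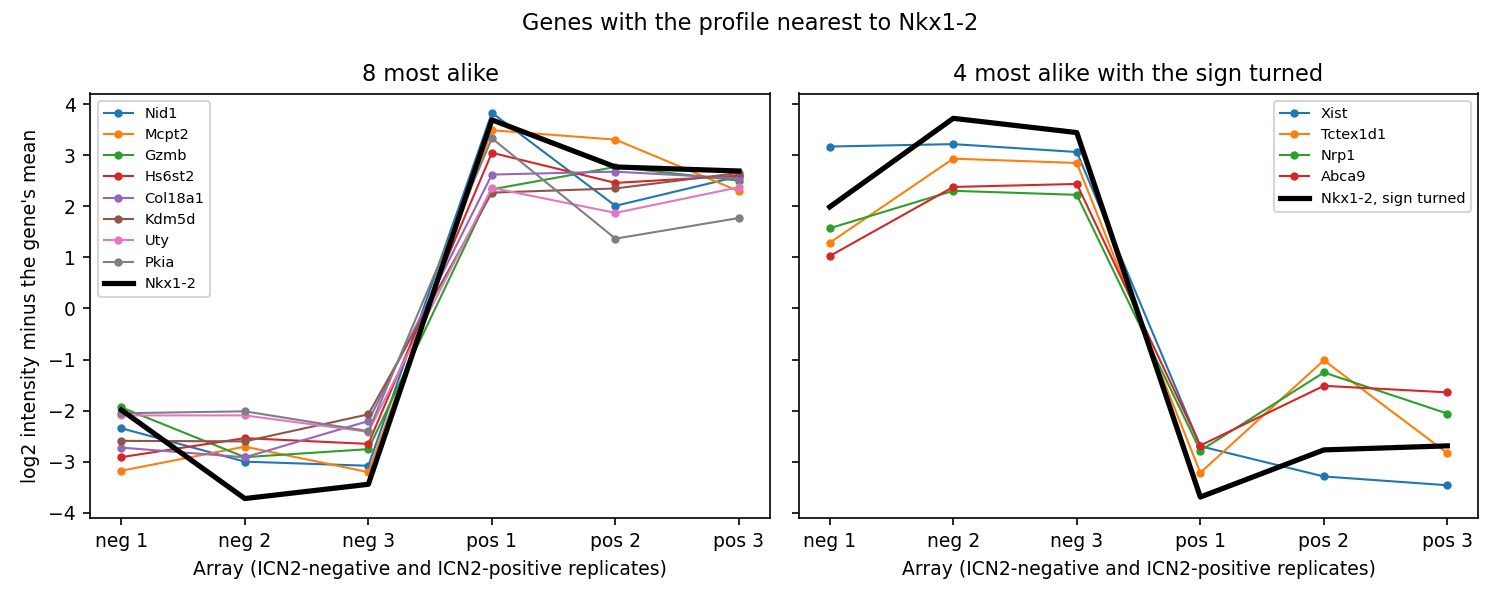
Log2 intensity of each gene on the 6 arrays after subtracting the gene's own mean, for the 8 genes nearest to Nkx1-2 (left) and the 4 nearest to its sign-turned profile (right), with Nkx1-2 in black; lines only join the points of 1 gene. Nid1, at a root mean square difference of 0.48, follows Nkx1-2 most closely.

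The genes beside Nkx1-2 on chromosome 7 differed far less than Nkx1-2 between the groups. Of the 5 nearest on each side with a probe set, 8 passed the filter, and none of the 8 passed an adjusted p of 0.05 in limma, where 2.59% of all genes tested were higher and 1.78% lower. At an unadjusted p under 0.05 there were 4, beside 27.4% of all genes tested. Their median difference was 0.03 (log2), against 0.02 over all genes tested. Oat, the ornithine aminotransferase gene on one side of Nkx1-2, read 11.13, 10.99 and 11.10 on the ICN2-negative arrays and 11.44, 11.43 and 11.64 on the ICN2-positive arrays. Its ICN2-positive arrays all lay above its ICN2-negative arrays, as in 20.7% of genes tested, and the difference was 0.43 ± 0.09 (SE, adjusted p = 0.0598 in limma, and 0.0663 to 0.189 with each array left out). Oat passed with a stricter filter at an adjusted p of 0.0487, and array weights brought it to 0.00762.

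Lhpp, a phosphatase gene on the other side of Nkx1-2, differed by 0.51 ± 0.20 (adjusted p = 0.179 in limma). Chst15, a chondroitin sulfate sulfotransferase gene past Oat, differed by -1.14 ± 0.42 (adjusted p = 0.156), and by -0.65 without ICN2-positive replicate 1, where it passed (adjusted p = 0.0409). The others past the filter ranged from -0.19 for Fam53b to 0.31 for Eef1akmt2, a methyltransferase of elongation factor 1A. The spindle checkpoint gene Bub3 stood at 0.00, the deubiquitinase subunit gene Abraxas2 at 0.03 and 1500002F19Rik at 0.03. Other Bub3 probe sets past the filter, less bright than the one read, differed by -0.48 to 0.325. Gpr26 and Cpxm2, between Bub3 and Chst15, were at or below the 40th percentile on every array.

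**Figure D3:**
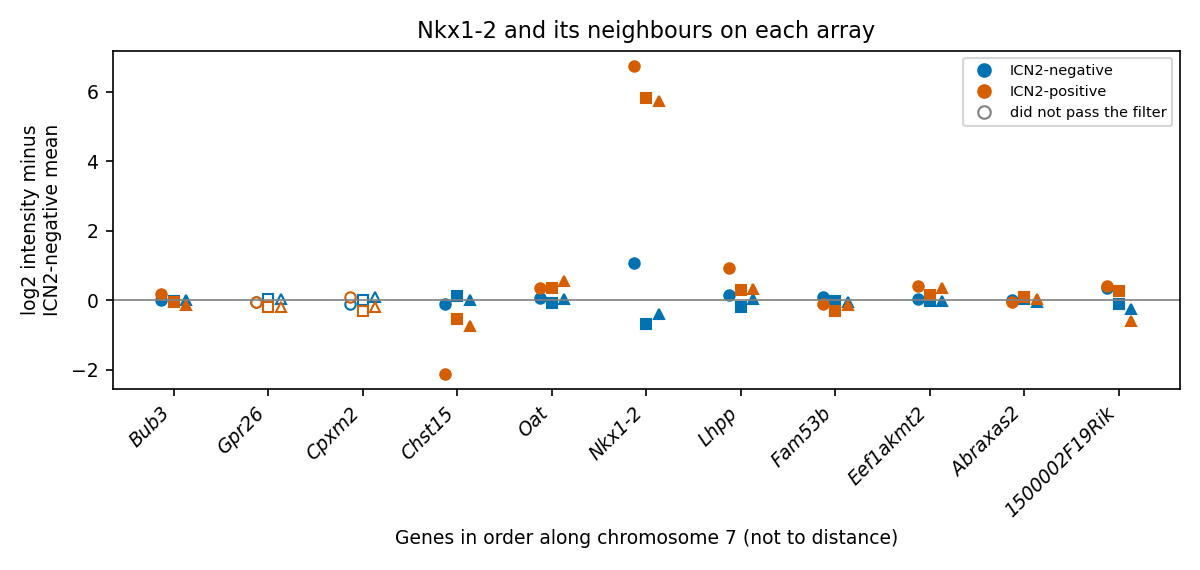
Log2 intensity minus the ICN2-negative mean on each array for Nkx1-2 (1422050_at) and its 5 neighbours on each side, in their order on chromosome 7 and not to distance; colours give the group, and open symbols the 2 genes that did not pass the filter. The neighbours past the filter differ by -1.14 to 0.51 between the groups, beside 6.10 for Nkx1-2.

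Among the relatives of Nkx1-2 in the NK-like class of homeobox genes, 1 changed. Of 40 with a probe set, 16 passed the filter. Of these 1 fell, none rose and 15 did not pass, where 1.78% of all genes tested fell and 2.59% rose. All 15 differed by less than 0.2 (log2), and the median of the 16 was -0.02. The gene that fell was Hlx, a homeobox gene active in blood cells, which read 8.20, 8.62 and 8.33 on the ICN2-negative arrays and 6.78, 7.44 and 7.19 on the ICN2-positive arrays. It fell by 1.25 ± 0.20 (SE, adjusted p = 0.0351 in limma). Leaving out ICN2-positive replicate 3, or 1 of the ICN2-negative arrays, ended the Hlx call, at adjusted p values of 0.0699 to 0.129. Hhex, a homeobox gene of blood and endothelial progenitors, stood at 11.60 ± 0.09 and 11.79 ± 0.32 (SD), a difference of 0.19 ± 0.17. Nkx6-1 differed by -0.19 and Barx1 by -0.17. Of the 24 that did not pass the filter, 23 lay at or below the 40th percentile on every array, among them Nkx2-1, Nkx2-5 and Tlx3. Nkx1-1, the closest relative of Nkx1-2, was not analysed here.

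Genes that accompany Nkx1-2 in the posterior embryo were also read. Of 33 with a probe set, 10 passed the filter. None of the 10 rose or fell at an adjusted p of 0.05 in limma or at an unadjusted p under 0.05. Their median difference was 0.01. Over all genes tested 2.59% rose and 1.78% fell, and 27.4% had an unadjusted p under 0.05 in limma. Sox2, Cdx1, Cdx2, Cdx4 and Tbx6, transcription factor genes of axial progenitors and presomitic mesoderm, lay at or below the 40th percentile on every array, as did 18 others. Wnt3a, a ligand that maintains these progenitors, differed by -0.03 ± 0.13 and Fgf8, a growth factor of the same region, by 0.12 ± 0.13. Fgf8 exceeded the 40th percentile on 1 ICN2-negative and 2 ICN2-positive arrays alone. Lin28a, an RNA-binding regulator of embryonic and fetal cells, differed by -1.27 ± 0.71 (adjusted p = 0.303 in limma). It read 6.96, 6.87 and 8.42 on the ICN2-negative arrays and 4.78, 6.74 and 6.91 on the ICN2-positive arrays.

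Since the transgene acts in the Notch pathway, its targets were set beside Nkx1-2. Of 15 Notch target genes past the filter 7 rose, none fell and 8 did not pass. Over all genes tested 2.59% rose and 1.78% fell. Of the 8, Dtx4, Notch1, Cdkn1a, Ccnd1 and Hes5 differed by -2.39, -0.81, -0.62, -0.38 and -0.23. The others, Bcl11b, Gata3 and Myc, differed by 1.38, 0.53 and 0.205. Of the 7, Hey2, Dtx1, Notch3 and Il2ra were under the 40th percentile on every ICN2-negative array and passed the filter only through the group where they are high, so no support is drawn from the count. Leaving out ICN2-negative replicate 2 brought the number that rose to 4, leaving out replicate 3 of that group brought it to 3, and a stricter filter left 8 tested and 3 that rose. Hey1, a repressor induced by Notch, rose by 3.27 ± 0.27 (adjusted p = 0.00723 in limma), Hes1, another such repressor, by 1.82 ± 0.16 (adjusted p = 0.00723) and Nrarp by 2.15 ± 0.20 (adjusted p = 0.00907). With values under the 40th percentile raised to it, Hey1 differed by 3.25 and Il2ra, an interleukin 2 receptor chain, by 2.42, beside 5.38 for Nkx1-2. The target list was drawn up with earlier results of these data known.

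**Figure D4:**
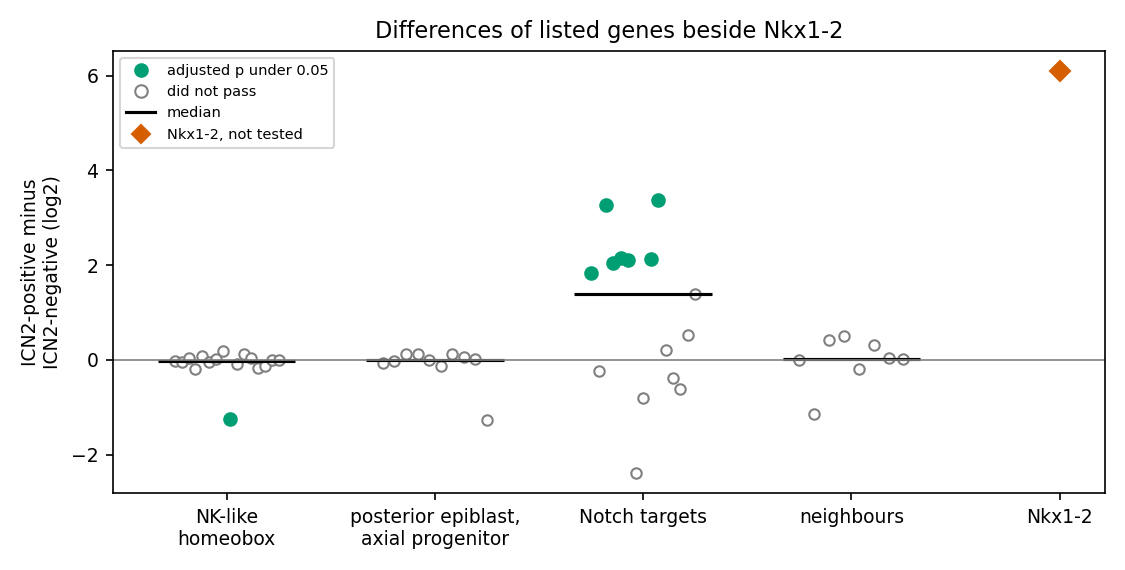
Difference between ICN2-positive and ICN2-negative arrays (log2) for the genes past the filter in each list, with filled points where the adjusted p in limma was under 0.05 and a line at each median of measured differences; the diamond is Nkx1-2 (1422050_at), which was not tested. Hlx is the filled point among the NK-like genes, and Nkx1-2 lies at 6.10.

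Some markers of other cells moved between the same groups, where 2.59% of all genes tested rose and 1.78% fell. Of 11 mast cell and basophil markers past the filter 4 rose, Mcpt1, Mcpt2, Mcpt4 and Il4. The first 3 of these were under the 40th percentile on every ICN2-negative array. Cpa3, Ms4a2 and Fcer1a, which mark mast cells and basophils more broadly, differed by -0.32, -0.03 and -1.35 without passing. ICN2-positive replicate 1 was the lowest array in each, with Fcer1a at 3.91 against 9.29 and 8.50 in replicates 2 and 3. Cpa3 read 9.90 against 11.96 and 11.80, and Ms4a2 8.74 against 11.77 and 11.45. Mcpt8, Hdc, Cma1 and Tpsb2 differed by -0.39, -1.49, 0.82 and 0.08 without passing. Sums of linear intensity, here and below, run over all members of a list with a probe set, past the filter or not. For the mast cell and basophil list the sum was 14000 to 17500 on ICN2-negative arrays and 5520 to 29800 on ICN2-positive arrays. Of 13 T cell and NK cell markers 2 rose, Gzma and Gzmb, with a list median of 1.12 and sums of 13400 to 13900 and 15300 to 27900. Cd7, Cd3g, Cd3e, Cd3d and Thy1 differed by 2.31, 1.52, 1.35, 1.25 and 1.12 without passing. Cd247, Prf1, Klrd1, Cd2, Il7r and Nkg7 also did not pass, at 0.355, 0.08, 0.08, 0.03, -0.23 and -0.30. Rag1 and Ncr1, which did not pass the filter, differed by -1.14 and 0.66. Cd5 and Ptcra lay at or below the 40th percentile on every array. None of 5 endothelial and stromal markers past the filter passed, and the sums over that list were 398 to 558 and 357 to 501. Of 6 neural markers 1 rose, Tubb3, with a list median of 0.00. Their sums of 3980 to 4280 and 4850 to 4930 rest largely on Mbp, a myelin gene that read 11.86 and 12.12 (log2 means) and did not pass, and Gfap differed by -0.51. Map2, Nefl, Nefm, Snap25, Olig1 and Olig2 lay at or below the 40th percentile on every array. None of the 10 progenitor markers passed, and their sums were 63600 to 65200 and 42000 to 60700. The list median was 0.03, with Kit, Gata2, Gata1, Klf1 and Tal1 at 0.12, 0.235, 0.08, 0.16 and 0.26. Myb and Runx1 differed by -0.02 and -0.07. Cebpa, Cd34 and Mpo, which mark early and granulocyte-monocyte progenitors, differed by -1.74, -1.35 and -1.02. ICN2-positive replicate 1, the array where Nkx1-2 was highest, was the lowest in each, with Cebpa at 8.73 against 12.26 and 11.96 in replicates 2 and 3, and Cd34 at 9.50 against 11.99 and 11.61. The part of these cell types in the Nkx1-2 difference was not tested.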

How the data were processed

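The deposited table held 1 linear intensity per probe set and array, from 5.13 to 24678.6, which the authors made with RMA per the submitters' processing notes. Per the labels, 5 ng of total RNA was amplified and labelled with an Ovation kit. RMA makes the arrays' distributions alike, so a change in total RNA per cell would not show. No detection call was used here.

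Log2 was taken of 45101 probe sets, 64 of them array controls that were left out. By the platform annotation 34945 of the rest had 1 gene, and 932 probe sets had several. Probe sets had to exceed the 40th percentile of intensity on 3 or more of the 6 arrays to be tested, and a gene was read by its brightest such probe set, which left 12837 genes. Groups were compared by lmFit and eBayes without a covariate (limma 3.58.1, R 4.3.3), with Benjamini-Hochberg adjustment over those genes. All adjusted p come from it and all differences are ICN2-positive minus ICN2-negative. Standard errors of Nkx1-2 come from the same fit over all probe sets. The fit was tested on simulated data.

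Nkx1-2, the gene lists and the rules for named genes were chosen with earlier results of these data known. Named were each Nkx1-2 probe set, Notch2, the 8 most alike and the 4 sign-turned genes, 5 neighbours on each side and up to 3 members of each list by p. Other members, such as Hhex, Wnt3a, Il2ra and the markers, and Eif2s3y and Gzma were named after their values were seen. Alternatives covered the filter, normalization, log scale, variance model, array weights, probe set choice, replicate number and each array left out.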

Additional observations from a re-analysis of the deposited data

How the results depend on the processing

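The direction of the Nkx1-2 difference was the same for its 3 probe sets under all 12 alternatives tried for each, at 4.94 to 6.63 for 1422050_at, 0.42 to 1.28 for 1422049_at and 0.11 to 0.26 for 1426177_a_at (log2). For 1422050_at and 1422049_at the direction could not change with an array left out, since their groups did not overlap. Raising values under the 40th percentile to it, chosen after seeing the data, gave 5.38, 0.42 and 0.17. Values of 4.94, 0.60 and 0.11 came from log2 of intensity plus 32, which compresses low values by construction. With each array left out the differences were 5.76 to 6.63, 0.92 to 1.28 and 0.12 to 0.26. With the replicate number as a block the 1422050_at difference was 6.10 again, with an SE of 0.18 in place of 0.51. Deviations of same-numbered arrays from their group means correlated at 0.178, 0.135 and 0.094. Those of differently numbered arrays correlated at -0.093, -0.216, -0.18, 0.162, -0.035 and -0.019. These values do not settle whether the numbers pair the samples, and the main fit used no pairing. Over all genes tested, 332 rose and 228 fell, 178 rose with the replicate block, and 1746 rose and 1516 fell with array weights. With each array left out, 68 to 373 rose and 28 to 395 fell. Among the neighbours, 1 rose with the stricter filter, and 2 rose and 1 fell with array weights, and 0 rose and 0 to 1 fell with an array left out. Among NK-like homeobox genes 1 rose with array weights (Hhex, adjusted p = 0.0342 in limma), and 0 to 1 fell with an array left out. Of the Notch targets 3 rose with the stricter filter, 1 fell with array weights (Dtx4), and 3 to 7 rose and 0 to 1 fell with an array left out. No posterior embryo gene passed in the alternatives that tested any, and the stricter filter left none to test. Of the 8 genes most like Nkx1-2, 5 stayed with log2 of intensity plus 32, 8 with the stricter filter and 6 to 8 with an array left out. The causes of these changes were not tested. With 3 arrays per group and no measured background, dim probe sets such as 1422049_at have no reliable level in the ICN2-negative group.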
